A study of Mus musculus with 60 samples.

Results

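The 43 genes described here encode the machinery that separates chromosomes at mitosis, and they were taken by name from the 27238 genes of a single-embryo RNA-seq table. They comprise 6 genes of the spindle checkpoint, 2 activators of the anaphase-promoting complex or cyclosome (APC/C), 2 mitotic kinases, 5 genes of the chromosomal passenger complex, 9 of the centromere and kinetochore, 12 subunits of the APC/C, securin and separase, and 5 subunits of cohesin. All 43 were found in the table. Single mouse embryos of 3 types were profiled at 6 stages (1-cell, 2-cell, 4-cell and 8-cell embryos, morulas and blastulas), as were the 2 donor cell types, with 3 libraries per group and 60 libraries of 20 groups in all. In vivo embryos came from superovulated C57BL/6 females mated with DBA2 males and were collected at each stage. NTC embryos received the nucleus of a cumulus cell (CC), a cell that surrounds the oocyte, from BDF1 females. NTM embryos received the nucleus of a BDF1 mouse embryonic fibroblast (MEF), serum-starved before use. In both, the nucleus was injected into an enucleated BDF1 oocyte, which was activated with strontium in the presence of cytochalasin B and the histone deacetylase inhibitor Scriptaid and then cultured in vitro. All groups share the BDF1 background in their nuclei, but the oocytes came from C57BL/6 females in the in vivo embryos and from BDF1 females in the NT embryos. Nuclear transfer, activation and culture were applied together to the NT embryos and not to the in vivo embryos. They cannot be told apart from each other or from the difference in oocyte strain. A library is 1 whole embryo, and levels are scaled to its depth, so they are shares of its reads and not amounts per embryo or cell. A change in 1 gene therefore cannot be told apart from a change in the rest of the RNA.

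At mitosis the spindle checkpoint (Bub1, Bub1b, Bub3, Mad1l1, Mad2l1 and Ttk) holds back Cdc20, the activator of the APC/C, until every kinetochore is attached to the spindle. The APC/C, a ubiquitin ligase, then marks securin (Pttg1) for destruction, which frees separase (Espl1) to cut the cohesin subunit Rad21 and lets sister chromatids part. Early embryos begin these divisions on transcripts stored in the oocyte, and the embryo's own genome is activated in the mouse around the 2-cell stage while stored transcripts are degraded.

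Levels are given in RPKM, read counts scaled by exon length and library depth, which allow genes to be compared per length, and each library is 1 embryo unless it is a donor cell library. Changes are log2 fold changes of RPKM + 1 with their standard error (SE) from limma fitted across all genes tested, with Benjamini-Hochberg adjusted p-values. A gene was called where the adjusted p was below 0.05 and the change was 1 or more, up or down, on the log2 scale. "Rose" and "fell" refer to calls.

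Some libraries stood apart. Across genes, r was 0.944 to 0.958 between the 3 in vivo 4-cell libraries, and their nearest other group was NTC morula with a mean r of 0.746. The mean r to the nearest group was lower in in vivo blastulas (0.738) and in CCs and MEFs (0.655). Mitochondrial transcripts took 4.72% to 7.36% of the reads of the in vivo 4-cell libraries. Their share was 27.6% to 30.6% in NTC 4-cell, 26.0% to 36.1% in NTM 4-cell and 28.5% to 41.0% in in vivo 8-cell libraries. It was low at the earlier stages too, with 3.99% to 11.4% in in vivo 1-cell and 6.19% to 11.1% in in vivo 2-cell libraries. Every member reached 1 RPKM in each of the 3 in vivo 4-cell libraries, whereas the other embryo libraries held 26 to 41 such members. In vivo 1-cell replicate 1 had 32 members at 1 RPKM or more, against 39 and 40 in the other 2 libraries of its group, and CC replicate 1 had 36 against 22 and 24. Depth ranged from 5294167 to 47830132 reads on genes, so that 3 reads on a transcript of 2000 nt correspond to 0.0314 to 0.283 RPKM. This limit covers counting error only. Exons of Cdc23, Cenpk, Anapc13, Cdca8 and Plk1 overlap those of a gene on the other strand by 1271, 233, 239, 232 and 156 nt, and the sources used here do not say whether strand was counted, so reads of these genes and their neighbours cannot be told apart there.

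**Figure D1:**
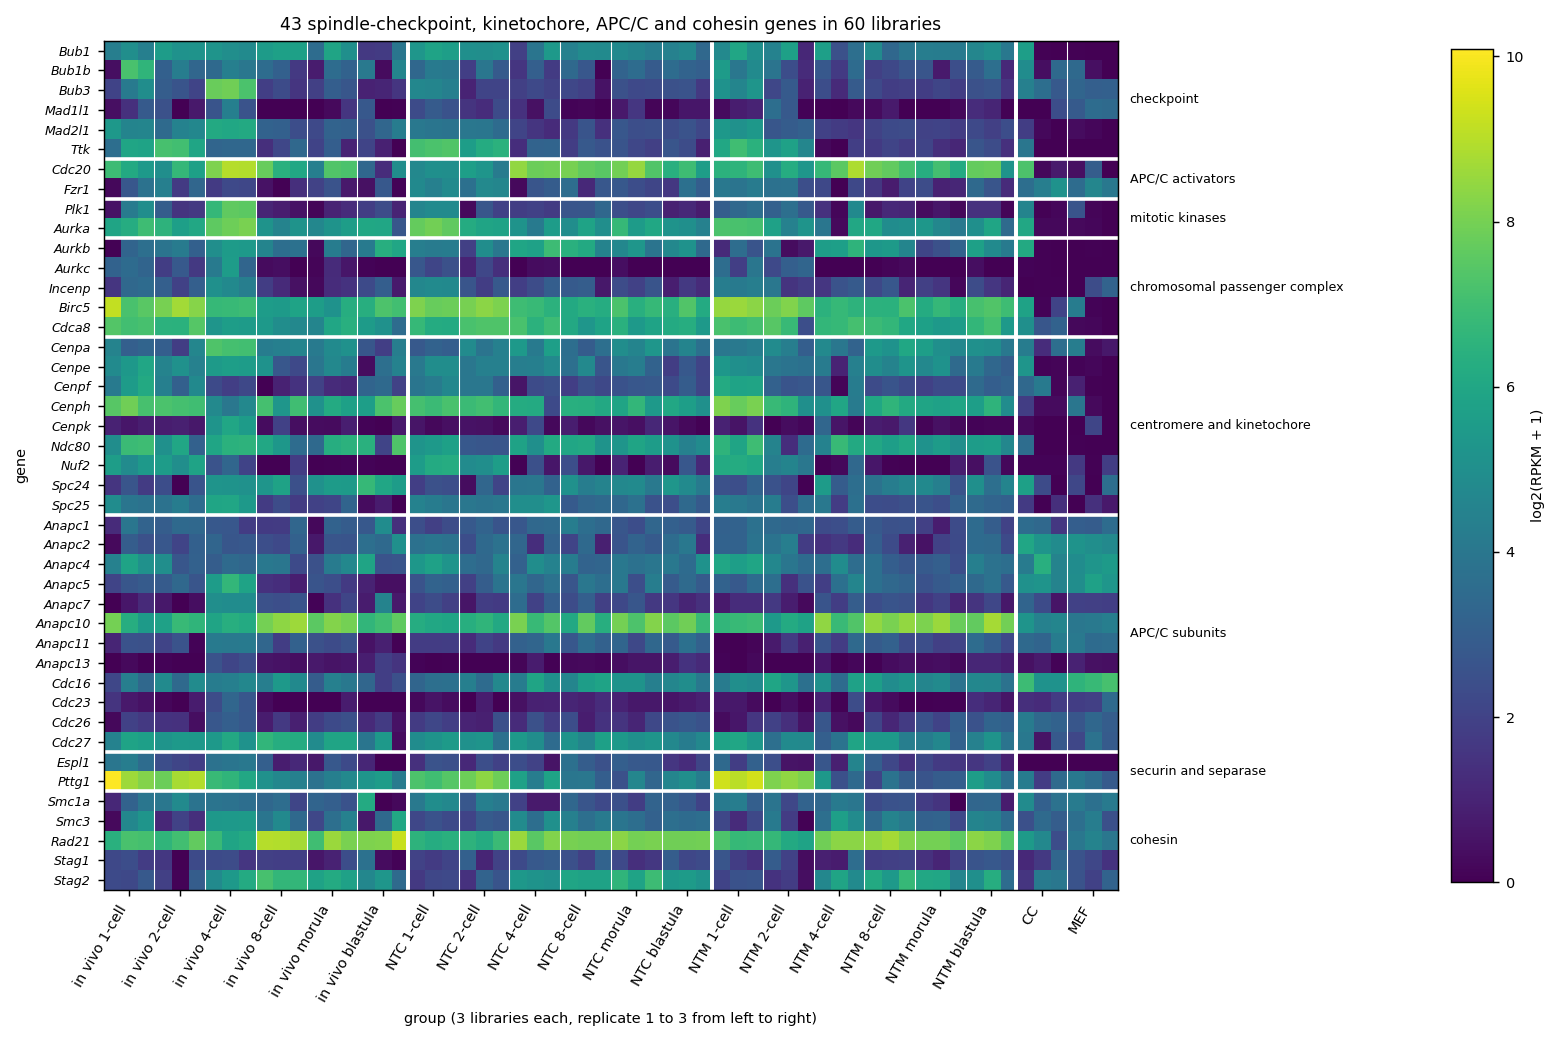
Level of the 43 genes (lines, ordered by role) in each of the 60 libraries (columns, 3 per group), coloured by log2(RPKM + 1). In the 3 in vivo 4-cell columns Bub3, Plk1, Aurka and Cenpa are bright, while most mitotic genes are dark in the CC and MEF columns except for CC replicate 1.

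The stage at which a member was highest differed between embryo types. By group mean, 19 of the 43 members were highest at the 4-cell stage in vivo, where 30.6% of all genes were. In NTC embryos 10 members were highest at the 4-cell stage (17.6% of all genes) and 18 at the 1-cell stage (29.5% of all genes), and in NTM embryos 9 (21% of all genes) and 22 (27.8%). In vivo, 8 members were highest at the 1-cell stage, where 21.3% of all genes were.

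From the 2-cell to the 4-cell stage in vivo, 21 of the 43 members rose and 7 fell. Of all 12995 genes tested, 31.4% rose and 20.8% fell, so the share of members that rose (48.8%) lay above this background and the share that fell (16.3%) below it. The median change of the members was 1.60 and that of all genes 0.36. The highest rises were those of Plk1, Bub3 and Cenpk, and the deepest falls those of Ttk, Nuf2 and Cenph. Of the 28 calls, 21 were made under all 12 alternatives that kept the 4-cell libraries. With the 8-cell in place of the 4-cell libraries, 9 of the 28 were called in the same direction, while the change had the opposite sign in 9, namely Bub3, Mad2l1, Plk1, Aurka, Aurkc, Incenp, Spc25, Anapc5 and Espl1, of which Aurkc, Spc25 and Anapc5 were called as falls.

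The counts by role that follow stand against 31.4% of all genes that rose and 20.8% that fell. No role was tested as a set. Among the checkpoint genes 2 of 6 rose (Bub3 and Mad2l1) and 1 fell (Ttk). Bub3, which carries Bub1 and Bub1b to the kinetochore, had 6.93, 5.22 and 3.21 RPKM in the 3 in vivo 2-cell libraries, 219.9, 241 and 151 in the 4-cell and 2.65, 3.92 and 1.93 in the 8-cell libraries. The 4-cell values stood far above all others and did not overlap with either neighbouring stage, and Bub3 rose into the 4-cell stage (5.09 ± 0.39, adjusted p = 7.25e-05). Mad2l1, the inhibitor that the checkpoint loads onto Cdc20, had 10.1, 21.3 and 24.6 RPKM at the 2-cell and 68.2, 63.1 and 69 at the 4-cell stage, again without overlap (1.87 ± 0.41, adjusted p = 0.00709). Ttk, the kinase that starts the checkpoint signal (also known as Mps1) and the checkpoint member with the highest mean level over all embryo groups, went the other way. Its level was 11.5, 59.95 and 56.4 RPKM in 1-cell, 142, 131 and 60.3 in 2-cell and 8.72, 9.37 and 9.49 in 4-cell in vivo libraries. The 2-cell libraries were higher than every 4-cell library, and Ttk fell (-3.37 ± 0.42, adjusted p = 0.000516). Bub1, Bub1b and Mad1l1 were not called.

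Of the APC/C activators, Cdc20 rose and Fzr1, which takes over from Cdc20 late in mitosis, was not called (-1.11 ± 0.66, adjusted p = 0.193). Cdc20 had 30.6, 104 and 53 RPKM in in vivo 2-cell libraries and 282, 494 and 489.6 in 4-cell libraries, and by its mean it was the most abundant member at the in vivo 4-cell stage (2.86 ± 0.50, adjusted p = 0.00245). Both mitotic kinases rose. Plk1, a kinase with roles from mitotic entry to cytokinesis, had 6.86, 1.87 and 2.23 RPKM in 2-cell, 106, 199.9 and 185 in 4-cell and 1.05, 0.768 and 0.392 in 8-cell libraries, so that it was high at the 4-cell stage and near 1 RPKM at the 8-cell stage (5.25 ± 0.51, adjusted p = 0.000172 for the rise). Aurka, the spindle pole kinase, was present before that, with 91.7, 50.7 and 66.3 RPKM in 2-cell and 192, 234 and 264 in 4-cell libraries, and it rose by less (1.74 ± 0.34, adjusted p = 0.0041).

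All 5 genes of the chromosomal passenger complex, which corrects wrong attachments, were called, 3 of them up and 2 down. The kinases Aurkb (1.60 ± 0.41) and Aurkc (2.22 ± 0.65) and the scaffold Incenp (2.04 ± 0.45) rose. The other 2 subunits, Birc5 (survivin) and Cdca8 (borealin), fell. Birc5 had the highest mean level of the 5 over all embryo groups, with 259, 412 and 303 RPKM at the 2-cell and 107, 110.1 and 120.4 at the 4-cell stage, all 4-cell libraries lying below all 2-cell libraries (-1.49 ± 0.30, adjusted p = 0.00452). Cdca8 had 89.3, 86.9 and 173 RPKM before and 37.7, 48.5 and 45.5 after (-1.32 ± 0.38, adjusted p = 0.0224).

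At the centromere and kinetochore 4 of 9 members rose (Cenpk, Cenpa, Spc24 and Spc25) and 3 fell (Nuf2, Cenph and Cenpf). Cenpk, a component of the inner kinetochore, was under 1 RPKM in all 3 in vivo 2-cell libraries, with 0.734, 0.865 and 0.562 RPKM, and had 36, 61.3 and 46.1 in 4-cell libraries (4.80 ± 0.36, adjusted p = 6.8e-05). Cenpa, the histone variant that marks the centromere, rose from 7.07, 2.58 and 23.5 to 157, 139 and 130.3 RPKM (4.00 ± 0.67, adjusted p = 0.00209). Cenph, a partner of Cenpk in the inner kinetochore, had the highest mean level of the 9 over all embryo groups and fell, from 149, 138 and 128 to 25.6, 15.2 and 25.2 RPKM (-2.63 ± 0.34, adjusted p = 0.000628). The 4 subunits of the Ndc80 complex, which binds microtubules, did not move together. Nuf2 fell from 46.4, 30.7 and 56.2 to 4.93, 9.17 and 3.1 RPKM (-2.81 ± 0.46, adjusted p = 0.00186), Spc24 and Spc25 rose (3.50 ± 0.70 and 1.93 ± 0.36), and Ndc80 itself was not called (1.59 ± 0.70, adjusted p = 0.0957). Nuf2 was thereby lower in every 4-cell than in every 2-cell library, and the 4-cell libraries were all below 10 RPKM.

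Of the 12 APC/C subunits, 6 rose and none fell, where 31.4% and 20.8% of all genes did. Anapc7, a subunit of the scaffold that holds Cdc20 in place, was under 1 RPKM at the 2-cell stage, with 0.556, 0.0141 and 0.295 RPKM, and had 31.1, 29 and 28.8 in 4-cell libraries (4.59 ± 0.35, adjusted p = 6.8e-05). Anapc5, a structural subunit, had 6.43, 9.55 and 5.37 RPKM before and 46.8, 102 and 57 after (3.05 ± 0.43, adjusted p = 0.000883). Anapc11 (2.53 ± 0.65), the RING subunit that carries the ligase activity, Anapc13 (2.34 ± 0.34), Cdc23 (2.48 ± 0.42) and Cdc26 (1.77 ± 0.42) were the others that rose. Anapc10, which helps to bind substrates and had the highest mean level of the 12 over all embryo groups, was not called, with 54.5, 109 and 97 RPKM at the 2-cell and 58.8, 78.8 and 70.6 at the 4-cell stage, ranges that overlap (-0.27 ± 0.37, adjusted p = 0.547).

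Securin and separase moved apart. Pttg1 (securin) had 227, 439 and 489 RPKM in 2-cell and 111, 95.4 and 65.6 in 4-cell libraries and fell (-2.03 ± 0.40, adjusted p = 0.00426). Espl1 (separase) had 4.28, 3.28 and 2.71 and 13.2, 14.2 and 15.6 RPKM and rose (1.81 ± 0.34, adjusted p = 0.00359). Neither pair of groups overlapped. Of cohesin, the ring subunit Smc3 rose from 1.2, 2.94 and 1.55 to 40.3, 42.2 and 44.2 RPKM (3.94 ± 0.37, adjusted p = 0.000152), and Stag2, which binds the ring to chromatin, rose from 2.75, 0.0696 and 6.93 to 27.2, 43.3 and 70.1 RPKM (3.82 ± 0.76, adjusted p = 0.00457). Rad21, the subunit that separase cuts and the most abundant of cohesin over all embryo groups, had 95.6, 129 and 201 RPKM at the 2-cell and 114, 59 and 70.7 at the 4-cell stage and was not called (-0.79 ± 0.41, adjusted p = 0.145).

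**Figure D2:**
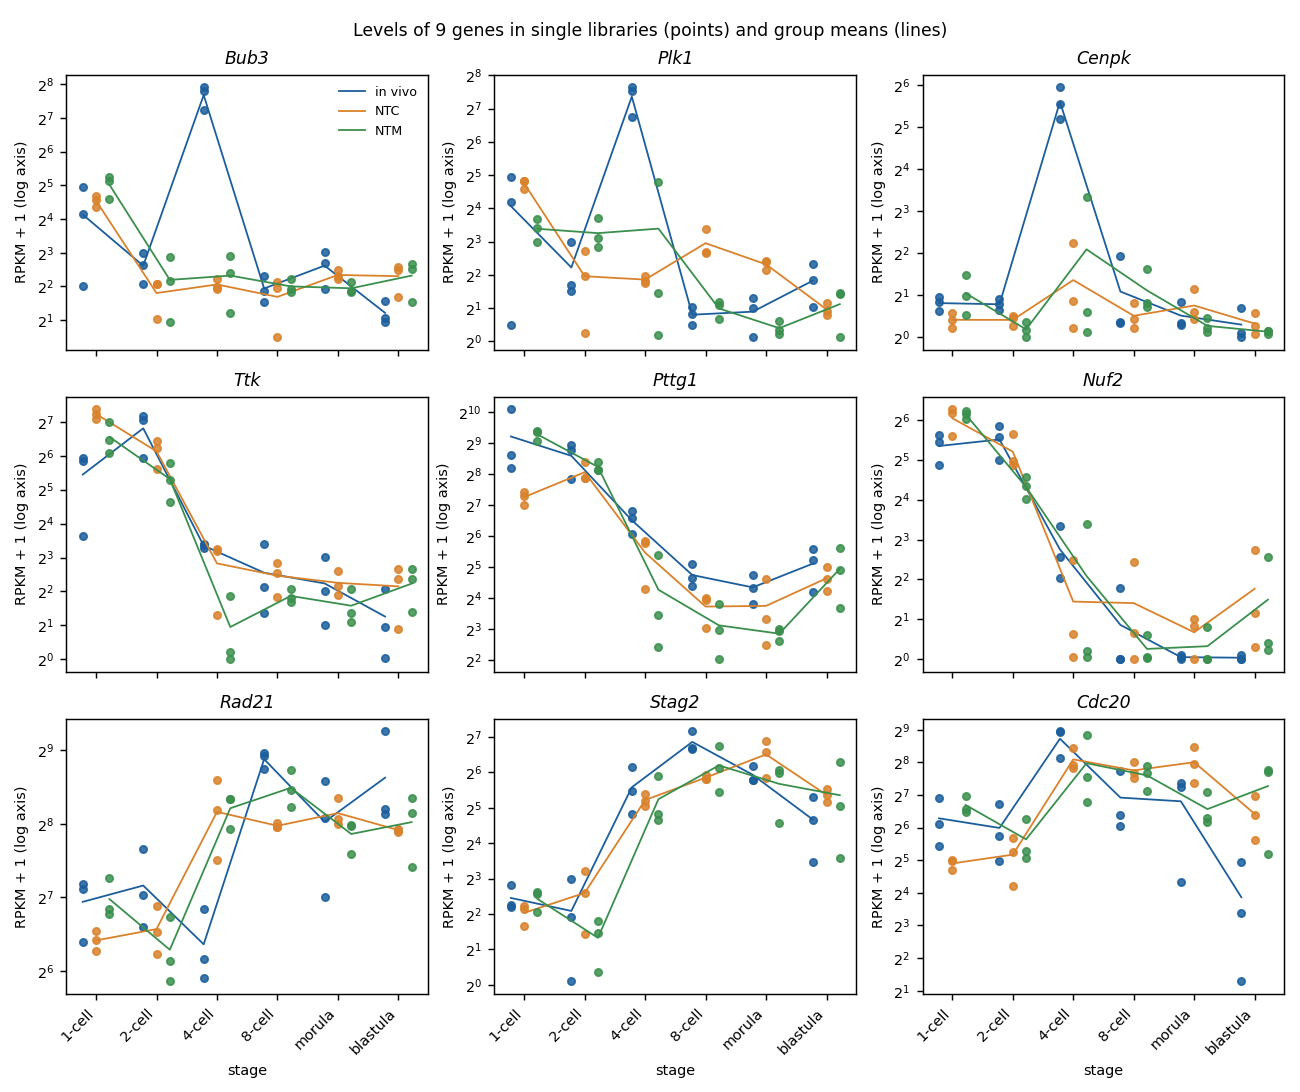
Levels of 9 members by stage (horizontal axis) on a log axis of RPKM + 1, with each library as a point and lines through the group means of in vivo, NTC and NTM embryos. Bub3, Plk1 and Cenpk are highest in the in vivo 4-cell libraries, Ttk, Pttg1 and Nuf2 decline after the 2-cell stage in all 3 embryo types, and Stag2 and Rad21 are higher at the 8-cell than at the 2-cell stage in all 3.

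Promoters of many genes expressed at mitosis carry 2 short elements, a cell cycle genes homology region (searched as TTTGAA) and the CCAAT box bound by the factor NF-Y. The stretch from 100 to 1 bases before the transcription start is shown for the 2 mitotic kinases and for the activator Cdc20 and the checkpoint kinase Ttk, so that promoters of members that rose and fell can be compared, from the RefSeq promoter table (build GRCm38.p6), 5′ to 3′ on the strand of the gene, with matches to both motifs on that strand in capitals.
Plk1: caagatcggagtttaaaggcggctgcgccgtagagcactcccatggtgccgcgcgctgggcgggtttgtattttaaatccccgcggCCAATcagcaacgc
Cdc20: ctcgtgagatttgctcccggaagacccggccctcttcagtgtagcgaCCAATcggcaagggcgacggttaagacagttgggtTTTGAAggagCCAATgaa
Aurka: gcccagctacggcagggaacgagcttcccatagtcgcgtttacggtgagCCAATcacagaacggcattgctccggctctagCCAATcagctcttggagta
Ttk: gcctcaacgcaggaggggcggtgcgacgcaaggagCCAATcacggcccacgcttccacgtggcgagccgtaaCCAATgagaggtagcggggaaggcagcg
These lie at chr7:122159335-122159434 (plus strand, Plk1), chr4:118437344-118437443 (minus strand, Cdc20), chr2:172370571-172370670 (minus strand, Aurka) and chr9:83834589-83834688 (plus strand, Ttk), outside the transcribed region given by RefSeq.

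The stretches of Cdc20, Aurka and Ttk each hold 2 copies of CCAAT and that of Plk1 holds 1. Only the stretch of Cdc20 holds a TTTGAA. In Plk1, Aurka and Ttk a TTTGAA lies beyond the stretch, at position 31, 33 and 8 from the start, in Ttk on the other strand. Plk1, Cdc20 and Aurka rose and Ttk fell at the 4-cell stage in vivo. In windows of 250 bases before to 50 bases after the start, searched on both strands, 37 members were matched with 43 windows. CCAAT was in 65.1% of these windows and in 37.4% of the 32851 windows of all genes, and TTTGAA was in 32.6% and 17.9%. The motifs do not overlap each other. Of the matched members that rose from the 2-cell to the 4-cell stage in vivo, 11 of 16 had a CCAAT and 8 of 16 a TTTGAA, and of those that fell 4 of 7 and 3 of 7. Of the 14 matched members that were not called, 8 and 2 did. These matches describe letters in a window, and no difference between the groups was tested.

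In NTC embryos 8 of 41 members tested rose from the 2-cell to the 4-cell stage and 8 fell. Among all genes 16.4% rose and 20.1% fell, and the members' shares (19.5% for each direction) were near this background. In NTM embryos 5 of 42 members rose and 4 fell (11.9% and 9.52%), where 12.1% and 14.3% of all genes did. With mitochondrial reads left out, the NTM calls were 6 up and 3 down. Without NTC 2-cell replicate 3 the NTC calls numbered 10, and without NTM 2-cell replicate 2 the NTM calls numbered 4. The median change of the members was 0.22 in NTC (all genes -0.20) and -0.04 in NTM embryos (all genes -0.20).

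Cdc20, Stag2 and Aurkb rose in all 3 embryo types and Nuf2, Ttk and Pttg1 fell in all 3. These are 3 of 41 members in each direction. Of the 9784 genes tested in all 3 types, 9.59% rose and 11.3% fell in each of them. Under the 12 alternatives that kept the 4-cell libraries, Stag2, Ttk and Pttg1 were called every time in all 3 types. The NTM call of Cdc20 held under 5 of them and that of Nuf2 under 4. Leaving out any 1 NTM 2-cell library lost both. Aurkb was called under 9 in vivo, 7 for NTC and 10 for NTM embryos. All 12 alternatives retained 8 of the 16 NTC calls and 4 of the 9 NTM calls. Cdc20 had 50.1, 37.4 and 17.6 RPKM in NTC 2-cell and 348, 227 and 239.8 in NTC 4-cell libraries (3.01 ± 0.44, adjusted p = 0.00122). In NTM embryos it had 32.8, 75.7 and 38.2 and 109, 186 and 457 RPKM (2.18 ± 0.65, adjusted p = 0.0374). The 2 stages did not overlap in either type, but the NTM 4-cell libraries spread over more than 4-fold. Stag2 went from 1.72, 8.34 and 5.09 to 41.2, 35.7 and 32.1 RPKM in NTC embryos (2.79 ± 0.53, adjusted p = 0.00417) and from 1.75, 2.5 and 0.283 to 24.3, 59.2 and 27.2 in NTM embryos (3.92 ± 0.69, adjusted p = 0.00441). Every 4-cell library was above every 2-cell library of its type. Aurkb, the kinase of the passenger complex, had 2.79, 29.9 and 15 and 60.4, 54.5 and 122 RPKM in NTC and 13.6, 0.247 and 0.63 and 48.3, 50.7 and 94.7 in NTM embryos, and 1 library of each 2-cell group lay well above another (2.60 ± 0.75, adjusted p = 0.0253 in NTC and 4.34 ± 0.96, adjusted p = 0.0116 in NTM embryos).

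The falling members were abundant at the 2-cell stage in both NT types. Pttg1 went from 235, 333 and 232 to 54.6, 18.5 and 57 RPKM in NTC (-2.73 ± 0.47, adjusted p = 0.00266) and from 281, 338 and 282 to 40.7, 4.45 and 10.03 in NTM embryos (-4.47 ± 0.75, adjusted p = 0.00366). Ttk went from 48, 73.9 and 85.3 to 1.49, 8.2 and 8.59 RPKM in NTC (-3.50 ± 0.59, adjusted p = 0.00249) and from 37.9, 54.5 and 24 to 0.164, 0 and 2.63 in NTM embryos (-4.55 ± 0.73, adjusted p = 0.00306). Both genes were lower in every 4-cell library. Nuf2 had 28.2, 30.4 and 48.7 and 0.0331, 4.59 and 0.538 RPKM in NTC (-4.11 ± 0.67, adjusted p = 0.00201) and 19.1, 22.5 and 15.1 and 0.0453, 0.161 and 9.52 in NTM embryos (-3.07 ± 0.94, adjusted p = 0.041), with 1 NTM 4-cell library far above the other 2. Ndc80, the partner of Nuf2, rose in NTC embryos, from 5.88, 5.55 and 5.41 to 55.1, 31.3 and 69.8 RPKM (2.93 ± 0.44, adjusted p = 0.00137). In NTM embryos Ndc80 went from 21.9, 1.49 and 10.6 to 21.4, 112 and 69 RPKM, which was not called (2.69 ± 0.96, adjusted p = 0.0698). Aurkc, the Aurora kinase of germ cells and early embryos, had 3.71, 7.28 and 8.86 RPKM in NTM 2-cell libraries and was listed at 0 in all 3 NTM 4-cell libraries.

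Rad21, which was not called in vivo, rose in both NT types, from 91.3, 73.7 and 117 to 384, 180.4 and 292 RPKM in NTC (1.55 ± 0.37, adjusted p = 0.0117) and from 105, 69.3 and 57 to 242, 322 and 322 in NTM embryos (1.96 ± 0.46, adjusted p = 0.0146). Smc3 (1.96), Anapc11 (1.85) and Spc25 (1.12) rose in NTC embryos, and Anapc10 (1.73) rose in NTM embryos. Smc1a (-2.60), Fzr1 (-2.43), Mad2l1 (-2.21), Cenpf (-1.93) and Birc5 (-1.39) fell in NTC embryos. Of the 12 alternatives that kept the 4-cell libraries, Spc25 was called under 2, Anapc10 under 4 and Smc3 under 7. Fzr1 and Cenpf were called under 5 each, Smc1a under 10, Anapc11 and Birc5 under 11 each and Mad2l1 under all 12. The Spc25 call was lost without any single library. Whether NTC and NTM embryos differed in this transition was not tested.

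The difference between embryo types in this transition was tested as an interaction term over the 12 libraries of 2 types and 2 stages. Against in vivo embryos, 11 of 43 members changed differently in NTC embryos (a higher change in 1 and a lower change in 10), where 2.38% and 12% of 13221 genes did. In NTM embryos 9 of 43 did (higher in 1 and lower in 8), where 1.86% and 8.05% of 13062 genes did. Both terms use the same in vivo libraries, so their calls are not independent. Bub3, Mad2l1, Plk1, Cenpa, Cenpk and Anapc7 were among the members called on the lower side in both terms, and Rad21 was called on the higher side. These results rest on the in vivo 4-cell libraries, which stood apart. With the 8-cell libraries in place of the 4-cell libraries, no member was called in either term (0 of 41 in both, with 8 and 5 members at an unadjusted p under 0.05 by limma), where 0.219% and 0.577% of all genes were called. With mitochondrial reads left out the counts were 9 and 8. Leaving out replicate 1, 2 or 3 of every group gave 5, 3 and 4 calls for NTC and 2, 0 and 4 for NTM embryos.

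Bub3, Plk1 and Cenpk, which rose most in vivo, were among the members called in both terms. Bub3 had 1.03, 3.21 and 3.22 RPKM in NTC 2-cell, 2.8, 3.7 and 2.99 in NTC 4-cell, 3.45, 6.33 and 0.943 in NTM 2-cell and 4.25, 1.29 and 6.44 in NTM 4-cell libraries, with overlap of the stages in both types. Its term was -4.76 ± 0.61, adjusted p = 0.000289 for NTC and -4.92 ± 0.86, adjusted p = 0.00404 for NTM embryos. Plk1 had 0.193, 5.51 and 2.92 RPKM in NTC 2-cell, 2.52, 2.92 and 2.4 in NTC 4-cell, 7.52, 11.9 and 6.13 in NTM 2-cell and 1.73, 0.14 and 26.5 in NTM 4-cell libraries. One NTM 4-cell library was thus above all NT libraries of these stages and another near 0, and the term was -5.04 ± 0.86, adjusted p = 0.00209 for NTC and -6.31 ± 1.32, adjusted p = 0.0102 for NTM embryos. Cenpk had 0.416, 0.366 and 0.206 RPKM in NTC 2-cell, 0.802, 3.74 and 0.16 in NTC 4-cell, 0, 0.278 and 0.132 in NTM 2-cell and 9.2, 0.503 and 0.0889 in NTM 4-cell libraries (-4.10 ± 0.70, adjusted p = 0.00209 and -3.62 ± 1.00, adjusted p = 0.0382). At the in vivo 4-cell stage all 3 libraries were above 35 RPKM. Rad21 differed the other way, since it rose in NT embryos and was not called in vivo (2.34 ± 0.57, adjusted p = 0.016 and 2.74 ± 0.60, adjusted p = 0.0127).

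**Figure D3:**
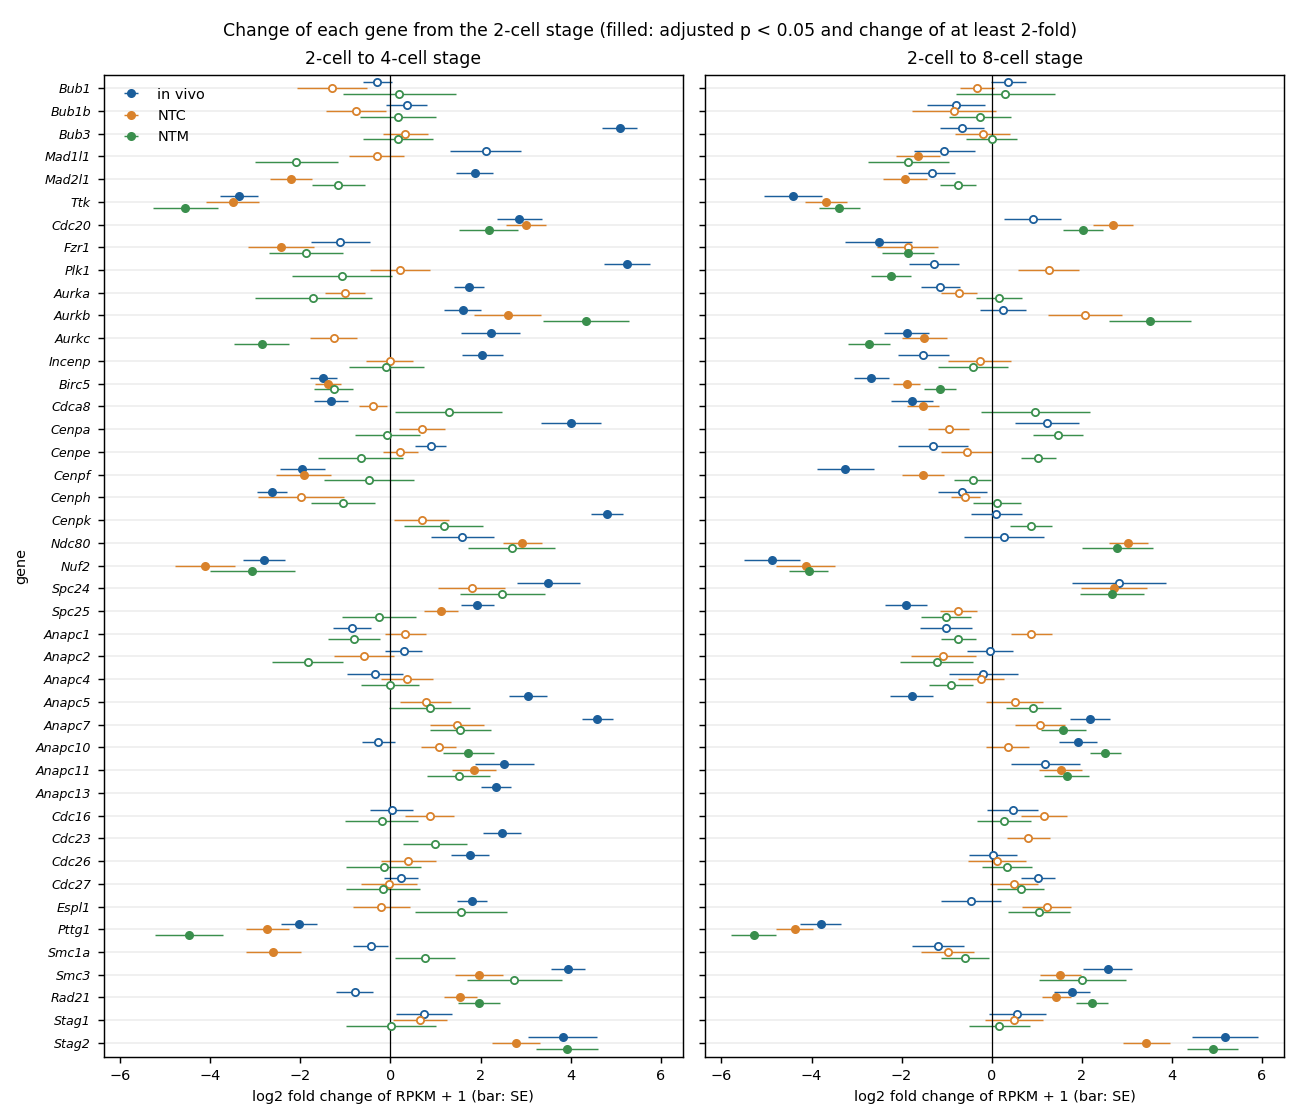
Log2 fold change of RPKM + 1 with its SE for each member from the 2-cell stage to the 4-cell stage (left) and to the 8-cell stage (right), in in vivo, NTC and NTM embryos. Filled points were called and members that were not tested have no point. Bub3, Plk1, Cenpk and Anapc7 lie near 5 on the left in vivo, while on the right the 3 embryo types lie closer together.

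Counted from the 2-cell to the 8-cell stage, a comparison added after the data had been seen, 5 of 41 members rose in vivo and 10 fell, near the 13.8% and 27.8% of all genes. In NTC embryos 7 rose and 9 fell (14.1% and 21% of all genes), and in NTM embryos 9 rose and 7 fell (17.9% and 21.9% of all genes). Stag2 and Rad21 rose in all 3 types, and Nuf2, Aurkc, Ttk, Pttg1 and Birc5 fell in all 3. These are 2 and 5 of the 40 members tested in all 3. Of the 9326 genes tested in all 3, 9.64% rose and 16.7% fell in each, shares above those of the members. Stag2 had 142, 101 and 103 RPKM in in vivo, 59.9, 55.4 and 55.2 in NTC and 68.2, 42.6 and 107 in NTM 8-cell libraries, all above the 2-cell libraries (5.18 ± 0.73, adjusted p = 0.00114 in vivo, 3.43 ± 0.52, adjusted p = 0.00153 in NTC and 4.90 ± 0.56, adjusted p = 0.000455 in NTM embryos). Pttg1 had 33.5, 24.3 and 19.99 RPKM in in vivo, 14.6, 15.2 and 7.17 in NTC and 3.1, 13.2 and 6.95 in NTM 8-cell libraries (-3.80, -4.37 and -5.28). Every one of these libraries was below every 2-cell library of its type. Nuf2, with 0, 0 and 2.45 RPKM in in vivo, 4.39, 0.565 and 0 in NTC and 0.529, 0.0333 and 0.0274 in NTM 8-cell libraries, had become one of the lowest members (-4.87, -4.13 and -4.06).

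Further members rose to the 8-cell stage in 1 or 2 types. In vivo, Smc3 reached 14.1, 27 and 9.98 RPKM (2.57 ± 0.54, adjusted p = 0.00665) and Anapc7 4.74, 4.39 and 5.18 RPKM (2.18 ± 0.44, adjusted p = 0.00569). Ndc80 reached 61.4, 67.9 and 35.3 RPKM in NTC (3.03 ± 0.43, adjusted p = 0.00105) and 64.9, 48.9 and 64.6 in NTM embryos (2.79 ± 0.78, adjusted p = 0.0234). Spc24, another subunit of the Ndc80 complex, went from 0.251, 9.12 and 3.22 to 33.4, 18.2 and 21.9 RPKM in NTC embryos (2.71 ± 0.74, adjusted p = 0.0219), and the groups did not overlap. Aurkb had 40.05, 44 and 22.9 RPKM in NTM 8-cell libraries, all above the NTM 2-cell libraries (3.51 ± 0.91, adjusted p = 0.0178). Ttk had 2.57, 6.15 and 4.84 RPKM in NTC and 2.24, 3.19 and 2.51 in NTM 8-cell libraries, below all NT 2-cell libraries (-3.68 and -3.38, against -4.41 in vivo).

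From the 4-cell to the 8-cell stage in vivo, 25 of 43 members fell and 4 rose. Among all 10417 genes 39.3% fell and 4.4% rose, and the median change was -1.37 in the members and -1.05 in all genes. With median-ratio scaling, which moved the median of all genes to -0.33, 13 members fell and 7 rose, and with mitochondrial reads left out 18 fell and 6 rose. Plk1 (-6.53 ± 0.38, adjusted p = 2.67e-05), Bub3 (-5.75 ± 0.35, adjusted p = 3e-05) and Anapc5 (-4.83 ± 0.41, adjusted p = 0.000119) fell most, and Anapc5 was left with 1.72, 1.48 and 0.818 RPKM in 8-cell libraries. Rad21 reached 499, 484 and 426 RPKM, the highest level of any member at that stage, and rose (2.57 ± 0.27, adjusted p = 0.000307). Anapc10 (249.7, 330.1 and 390.1 RPKM, 2.19 ± 0.25, adjusted p = 0.000412) and Cenph (137, 38.2 and 127 RPKM, 1.98 ± 0.52, adjusted p = 0.0165) rose as well, without overlap with the 4-cell libraries, as did Stag2. Aurkb, Birc5 and Smc3 fell as deposited, but with median-ratio scaling their changes were 0.02, 0.23 and 0.00. This step and the 2-cell to 4-cell step share the 3 in vivo 4-cell libraries, which stood apart, so their calls are not independent. Between the 2-cell and the 8-cell stage in vivo, Plk1 (-1.28 ± 0.55, adjusted p = 0.0927) and Bub3 (-0.66 ± 0.49, adjusted p = 0.292) were not called. Anapc5 fell there (-1.78 ± 0.47, adjusted p = 0.0172).

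No member was called from the 4-cell to the 8-cell stage in NTC (0.0564% of all genes) or NTM embryos (0.363%), where limma gave 5 and 2 members an unadjusted p under 0.05. Aurka had 35.3, 16.9 and 47.2 RPKM in NTC 4-cell and 29.9, 56.4 and 30.8 in NTC 8-cell libraries, and 14.7, 0.202 and 65.6 in NTM 4-cell and 63.5, 29.2 and 31.4 in NTM 8-cell libraries, with overlap of the stages in both types. Birc5 had 125, 111 and 87.7 RPKM in NTC 4-cell and 69.6, 83.1 and 74.3 in NTC 8-cell libraries, which do not overlap but were not called (-0.50 ± 0.35, adjusted p = 0.608).

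At the 4-cell stage itself, 17 of 43 members were lower in NTC than in in vivo embryos and 3 higher, against 20.4% and 7.4% of 11457 genes. In NTM embryos 15 were lower and 2 higher, against 17.8% and 3.33% of 11143 genes. The median difference was -1.01 in NTC (all genes -0.39) and -1.31 in NTM embryos (all genes -0.69). Both comparisons use the same 3 in vivo libraries, whose mitochondrial share was lower, as given above. With median-ratio scaling, which moved the median of all genes to -0.08 and -0.19, the calls were 14 lower and 4 higher in NTC and 8 lower and 4 higher in NTM embryos. With mitochondrial reads left out they were 14 lower and 4 higher for NTC, and 11 lower and 3 higher for NTM embryos. Leaving out any single in vivo 4-cell library left 14 or 15 calls for NTC and 6 for NTM embryos.

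The members that were lower in both NT types were Bub3, Mad2l1, Plk1, Aurka, Aurkc, Incenp, Cenpa, Cenpk, Anapc5, Anapc7 and Anapc13, and Rad21 and Cdca8 were higher in both. Bub3, with 151 to 241 RPKM in vivo, was between 1.29 and 6.44 RPKM in the 6 NT 4-cell libraries (-5.60 ± 0.31, adjusted p = 9.56e-06 in NTC and -5.49 ± 0.53, adjusted p = 0.000659 in NTM embryos). Plk1 was at -5.46 ± 0.35, adjusted p = 1.64e-05 in NTC and -5.17 ± 1.06, adjusted p = 0.0131 in NTM embryos. Of the NT 4-cell libraries, only NTM replicate 3 had more than 3 RPKM of Plk1. Cenpk differed by -4.47 ± 0.55, adjusted p = 0.000532 in NTC and -4.22 ± 0.85, adjusted p = 0.0119 in NTM embryos. Aurka had 35.3, 16.9 and 47.2 RPKM in NTC (-2.86 ± 0.38, adjusted p = 0.000774) and 14.7, 0.202 and 65.6 in NTM 4-cell libraries (-4.41 ± 1.25, adjusted p = 0.0413), against 192 to 264 in vivo. The NTM libraries ranged widely but stayed below all in vivo libraries.

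The members that were higher in NT embryos were Rad21 and Cdca8 in both types and Anapc10 in NTC. Rad21 had 384, 180.4 and 292 RPKM in NTC and 242, 322 and 322 in NTM 4-cell libraries, all above the 114, 59 and 70.7 of the in vivo libraries (1.79 ± 0.35, adjusted p = 0.00594 and 1.89 ± 0.35, adjusted p = 0.00836). Cdca8 had 147, 89.9 and 121 RPKM in NTC and 101, 109 and 137 in NTM 4-cell libraries (1.40 ± 0.28, adjusted p = 0.00619 and 1.37 ± 0.33, adjusted p = 0.0239), where its partners Aurkc and Incenp were lower. Anapc10 was higher in NTC embryos, with 267, 109.5 and 167 RPKM against 58.8, 78.8 and 70.6 in vivo (1.29 ± 0.34, adjusted p = 0.0224). The groups did not overlap in these 3 genes. Cdc20 was called in neither NT type (-0.61 ± 0.29, adjusted p = 0.146 and -0.96 ± 0.52, adjusted p = 0.225), and neither was Birc5 (-0.07 ± 0.24, adjusted p = 0.842 and -0.22 ± 0.30, adjusted p = 0.617). Markers of oocytes summed to 63.0 to 79.4 RPKM in in vivo, 56.0 to 117 in NTC and 58.1 to 444 RPKM in NTM 4-cell libraries, and their part in these results was not tested.

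Apart from the members, 57 other genes of these pathways were followed. From the 2-cell to the 4-cell stage in vivo, 12 of the 53 tested rose and 10 fell (22.6% and 18.9%, against 31.4% and 20.8% of all genes), and their median change was 0.55 (all genes 0.36). The highest rises were those of the inner kinetochore gene Cenpt (4.74), Mad2l1bp (4.05) and Trip13 (3.99), the last 2 of which take Mad2l1 out of its inhibitory complex. Fbxo43 (-5.97), which inhibits the APC/C in oocytes, Cenpn (-2.62) and Cenpo (-2.29) fell most. At the 4-cell stage, 11 of 52 were lower and 4 higher in NTC than in in vivo embryos (21.2% and 7.69%, against 20.4% and 7.4% of all genes). In NTM embryos 9 of 53 were lower and 1 higher (17% and 1.89%, against 17.8% and 3.33%), so that both counts were near the background. Ube2s, which extends ubiquitin chains for the APC/C, was higher in both (3.68 and 4.15), and Cenpw (-4.91 and -4.30), Ska2 (-2.64 and -2.67) and Tpx2, the activator of Aurka (-2.40 and -3.63), were lower in both. Cenpq (1.48) and Wapl (1.30), which removes cohesin from chromatin, were higher in NTC embryos. Exons of Ube2s overlap those of Rpl28 on the other strand, and exons of Cenpo overlap those of Adcy3 and Ptrhd1. Ska2, Cenpq and Cenpt also share exon sequence with a gene on the other strand. Reads of these genes and their neighbours cannot be told apart there, and the part of the neighbours in these values was not tested.

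**Figure D4:**
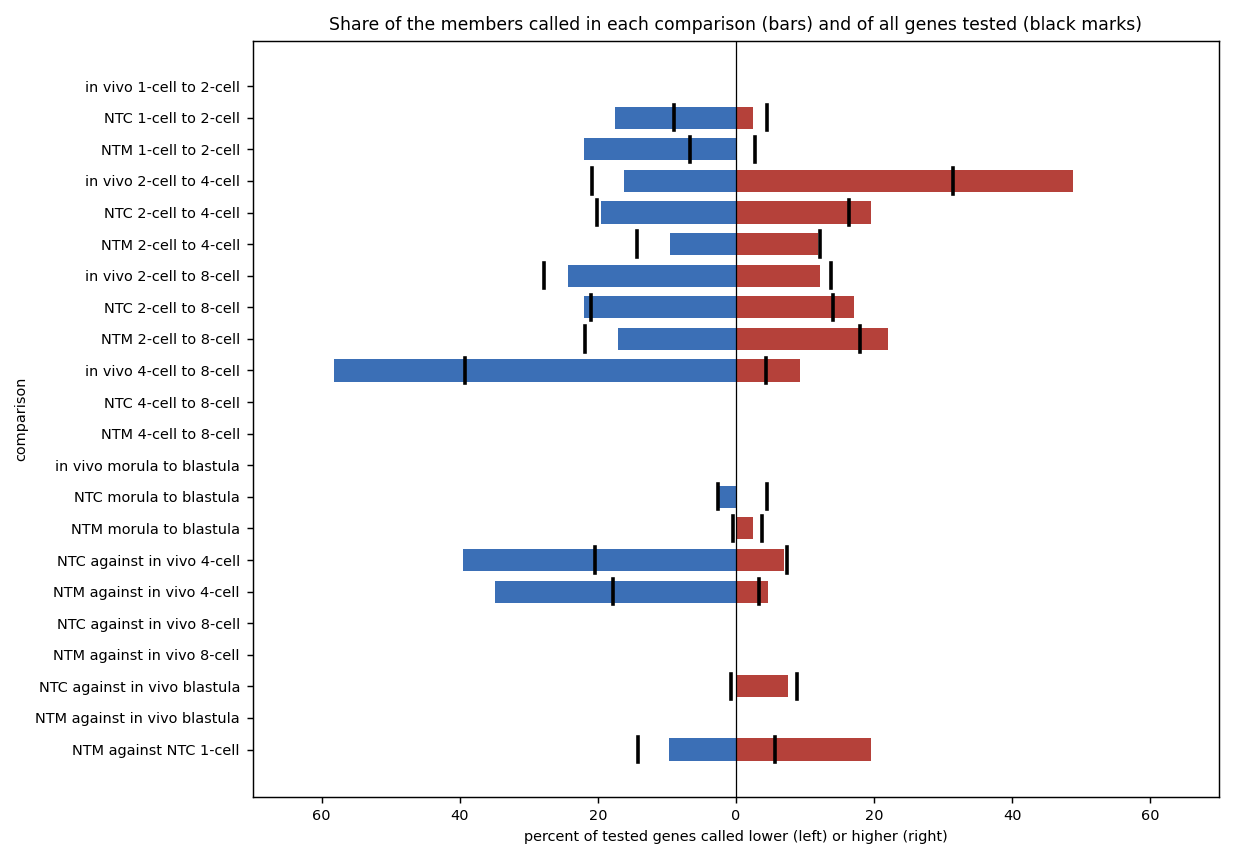
Percentage of the members tested that were called lower (bars to the left) or higher (bars to the right) in each comparison, with black marks at the percentage of all genes tested. Comparisons without marks had no member called. The members exceed the marks in several comparisons. On the right these include in vivo 2-cell to 4-cell (48.8% against 31.4%) and NTM against NTC 1-cell (19.5% against 5.64%). On the left they include in vivo 4-cell to 8-cell (58.1% against 39.3%) and NTM 1-cell to 2-cell (22% against 6.68%). Against in vivo 4-cell the members also exceed the left marks in NTC (39.5% against 20.4%) and NTM embryos (34.9% against 17.8%).

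From the 1-cell to the 2-cell stage, no member (and 0% of all genes) was called in vivo, where limma gave 2 members an unadjusted p under 0.05. In NTC embryos 7 of 40 members fell and 1 rose, against 8.95% and 4.53% of all genes. In NTM embryos 9 of 41 fell and none rose, against 6.68% and 2.72%. The median change of the members was -0.35 in vivo (all genes 0.02) and -0.37 in NTC embryos (all genes -0.17). For NTM embryos it was -0.97 (all genes -0.22). Whether the embryo types differed in this transition was not tested. Median-ratio scaling gave 6 falls and 3 rises in NTC and 4 falls in NTM embryos. Leaving out any single NTM 1-cell library left 1 call in NTM embryos, that of Cenpf. Leaving out NTC 1-cell replicate 1, 2 or 3 left 5, 4 and 4 in NTC embryos.

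Bub3 and Ndc80 were among the largest falls in both NT types. Bub3 had 24.7, 22.9 and 19.3 RPKM in NTC and 34.2, 23.2 and 37 in NTM 1-cell libraries, all above the 2-cell libraries of the same type (-2.81 ± 0.40, adjusted p = 0.00324 and -3.00 ± 0.58, adjusted p = 0.0152). Ndc80 had 35.9, 41.6 and 52.8 RPKM in NTC and 93.8, 58.4 and 125 in NTM 1-cell libraries, and again no 2-cell library reached these levels (-2.73 ± 0.29, adjusted p = 0.000941 and -3.36 ± 0.76, adjusted p = 0.0285). Plk1 fell in NTC embryos from 22.9, 27.5 and 27.2 RPKM (-3.10 ± 0.58, adjusted p = 0.0102), and was not called in NTM embryos, where it started at 6.91, 9.54 and 11.8 RPKM (-0.15 ± 0.48, adjusted p = 0.866). Cenpf, a large kinetochore protein, fell in NTM embryos from 71.1, 56.9 and 58.5 to 7.77, 5.11 and 5.64 RPKM (-3.15 ± 0.38, adjusted p = 0.00288). Aurka fell in both (-1.77 and -2.05), from 207, 246 and 197 RPKM in NTC and 151, 146 and 139 in NTM 1-cell libraries. The single rise was that of Cenpa in NTC embryos, from 6.07, 8.07 and 7.11 to 28.3, 13.9 and 20.1 RPKM (1.38 ± 0.35, adjusted p = 0.0322). This call was made under 5 of 12 alternatives and was lost without any single NTC 1-cell library.

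At the 1-cell stage, before or around the start of embryonic transcription, no member was called between NTC or NTM and in vivo embryos (1.16% and 1.28% of all genes), although limma gave 13 and 5 members an unadjusted p under 0.05. This result rested on in vivo 1-cell replicate 1. Securin (Pttg1) had 1093, 393 and 295 RPKM in the 3 in vivo 1-cell libraries, Birc5 had 576, 144 and 183, and Bub1b, a part of the checkpoint complex that binds Cdc20, had 0.314, 145 and 96.5. In each of these genes the first library stood away from the other 2, upward for Pttg1 and Birc5 and downward for Bub1b. Without that library 12 members were called for NTC (5 higher and 7 lower, 13.9% of all genes called), among them Bub1b (-3.03), Smc3 (-2.64) and Espl1 (-1.78) on the lower and Fzr1 (1.40) and Ttk (1.34) on the higher side. For NTM embryos 4 were called (1 higher and 3 lower, 8.23% of all genes called), namely Smc3 (-3.08), Anapc11 (-2.45), Bub1b (-2.10) and Birc5 (1.12). The remaining group of 2 libraries was then assumed to vary like the others.

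Between the 2 NT types, calls were made at the 1-cell stage. There 8 of 41 members were higher in NTM than in NTC embryos and 4 lower, against 5.64% and 14.2% of all genes, and the median difference was 0.44 in the members and -0.19 in all genes. Pttg1 had 156, 128 and 173 RPKM in NTC and 656, 531 and 676 in NTM 1-cell libraries (2.02 ± 0.17, adjusted p = 0.00021). Cdc20 had 25, 31.2 and 30.5 in NTC and 88.8, 94.7 and 124 RPKM in NTM libraries (1.78 ± 0.20, adjusted p = 0.00088). In both genes, as in Cenpf with 14, 17.1 and 24.2 against 71.1, 56.9 and 58.5 RPKM (1.73 ± 0.24, adjusted p = 0.00212), the groups were well apart. On the lower side were the checkpoint gene Mad1l1, with 3.93, 6.52 and 4.86 RPKM in NTC and 0.232, 0.76 and 1.03 in NTM libraries (-1.87 ± 0.36, adjusted p = 0.00776), and the ligase subunit Anapc11, with 2.5, 2.47 and 2.61 and 0.0419, 0.0134 and 0.0958 RPKM (-1.75 ± 0.32, adjusted p = 0.00619). Aurkb, with 18.8, 17.5 and 17.7 RPKM in NTC and 1.29, 11.3 and 5.22 in NTM libraries, was lower as well (-1.76 ± 0.53, adjusted p = 0.0435). None of the NTM libraries reached the NTC range in these 3 genes. Without NTC 1-cell replicate 3 the calls fell from 12 to 7. With 1 fit over all 20 groups 3 members were called, and 3 of the 12 calls were made under every alternative.

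At the later stages no member was called between NTM and NTC embryos at the 2-cell (0% of all genes), 4-cell (0%), 8-cell (0.0507%), morula (0%) or blastula (0%) stage, with 0, 2, 4, 10 and 1 members at an unadjusted p under 0.05 by limma. Against in vivo embryos no member was called at the 2-cell stage in NTC (0.152% of all genes) or NTM embryos (0.141%), at the 8-cell stage (1.46% and 2.02%) or at the morula stage (0.0321% and 0.168%). For NTC and NTM embryos, limma gave 1 and 1 members an unadjusted p under 0.05 in 2-cell embryos, 11 and 9 in 8-cell embryos and 6 and 4 in morulas.

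At the blastula stage 3 of 40 members were higher in NTC than in in vivo embryos and none lower, against 8.81% and 0.657% of all genes, and the median difference was 0.31 in the members and 0.85 in all genes. They were Anapc11, with 6.33, 12.3 and 7.76 RPKM in NTC against 0.415, 0.832 and 0.0344 in in vivo libraries (2.77 ± 0.58, adjusted p = 0.0351), Spc25, with 4.44, 10.1 and 6.23 against 0.26, 0.696 and 0 RPKM (2.56 ± 0.56, adjusted p = 0.0387), and Anapc5, with 6.49, 10.3 and 6.46 against 0.979, 0.344 and 0.328 RPKM (2.49 ± 0.55, adjusted p = 0.0387). The groups did not overlap in any of the 3, but median-ratio scaling, which moved the median of all genes to 0.43, left none of them called. No member was called either without NTC blastula replicate 1 or 2. Anapc11 alone was called without NTC replicate 3, and none of these 3 without in vivo replicate 3. Between the in vivo blastula libraries r was 0.710 to 0.718 across genes. In NTM blastulas no member was called (0.746% of all genes, 9 members at an unadjusted p under 0.05 by limma), and without NTM blastula replicate 3 the count was 4.

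Between the 8-cell and morula stages no member was called in vivo (0.0116% of all genes), in NTC (0%) or in NTM embryos (0%), with 2, 2 and 7 members at an unadjusted p under 0.05. From morula to blastula none was called in vivo (0.801% of all genes, 7 members at an unadjusted p under 0.05), 1 fell in NTC (2.62% of all genes fell and 4.54% rose) and 1 rose in NTM embryos (3.73% rose and 0.499% fell). Cdc20 went from 247, 357 and 163 to 82.1, 124 and 47.7 RPKM in NTC embryos (-1.62 ± 0.41, adjusted p = 0.0484). Aurkb went from 3.34, 4.72 and 8.4 to 51.8, 27.3 and 16.9 RPKM in NTM embryos (2.28 ± 0.53, adjusted p = 0.0381). The stages did not overlap in either case, but the Cdc20 call was lost without any single library and the Aurkb call without any single library other than NTM blastula replicate 3, without which 3 members were called in NTM embryos. Median-ratio scaling left no member called in NTM and gave 5 calls in NTC embryos. The interaction terms of this transition called no member in NTC (0.236% of all genes, 7 members at an unadjusted p under 0.05) or NTM embryos (0.647%, 5 members).

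Related members were also set side by side within each library, as the log2 ratio of RPKM + 1, with no test. Aurkc was above Aurkb in 2 of 3 NTM 2-cell libraries, with a mean log2 ratio of Aurkb over Aurkc of -1.23 ± 2.48 (SD, n = 3), and at the 4-cell stage the ratio was 5.97 ± 0.53 in NTM and 5.98 ± 0.55 in NTC embryos. Aurkc was not detected in any NTM 4-cell library, so the NTM ratio at that stage depends on Aurkb and the pseudocount alone. In vivo the ratio of Aurkb over Aurkc was 1.00 ± 1.12 in 4-cell and 3.76 ± 0.51 in 8-cell embryos. Stag2 over Stag1, the alternative subunits of cohesin, was 0.36 ± 0.32 in 2-cell, 3.42 ± 1.04 in 4-cell and 4.97 ± 0.25 in 8-cell in vivo embryos, and 0.38 ± 1.92, 2.53 ± 0.54 and 3.32 ± 0.67 in NTC embryos. Stag1 itself stayed between 0.0122 and 12.6 RPKM in all in vivo libraries. Cdc20 over Fzr1 was 0.22 ± 0.35 in NTC 1-cell and 2.63 ± 0.18 in NTM 1-cell embryos, with no overlap, and reached 6.64 ± 0.19 in in vivo, 6.12 ± 1.81 in NTC and 6.26 ± 1.51 in NTM 4-cell embryos.

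In 5 of the 6 donor libraries most mitotic members were low, while several APC/C and cohesin subunits were not. MEF libraries, from cells starved of serum, had 0.0382, 0.00619 and 0 RPKM of Bub1, 0.00482, 0.011 and 0 of Ttk and 0.206, 0.128 and 0 of Aurka, next to 92.6, 111 and 143 of the APC/C subunit Cdc16. In CC libraries Aurka had 65.7, 0.175 and 0.175 RPKM, Cdc20 156, 0.169 and 0.645, Birc5 54.9, 0.0651 and 3.07 and Cdc16 121, 34.2 and 34.9. CC replicate 1 was high in these mitotic members while the other 2 CC libraries were at 3.07 RPKM or less, and Cdc16 was present in all 6 donor libraries. Between MEFs and CCs 1 of 40 members was called, Cdca8, with 31.2, 5.57 and 7.91 RPKM in CCs and 0.151, 0.146 and 0 in MEFs (-3.49 ± 0.81, adjusted p = 0.0392), against 2.3% of all genes lower and 3.99% higher in MEFs. The groups did not overlap, but the call was lost without CC replicate 1 or 3 and without any single MEF library. Of 12 fibroblast markers, all 12 reached a mean of 1 RPKM in MEFs (summed 8989 to 11780 RPKM) and 3 in CCs (6.50 to 18.3 RPKM). Of 12 cumulus markers 9 did in CCs (668 to 1331 RPKM), with Cyp19a1 and Has2 at 0 in all 3 CC libraries, and 4 did in MEFs (496 to 1210 RPKM).

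**Figure D5:**
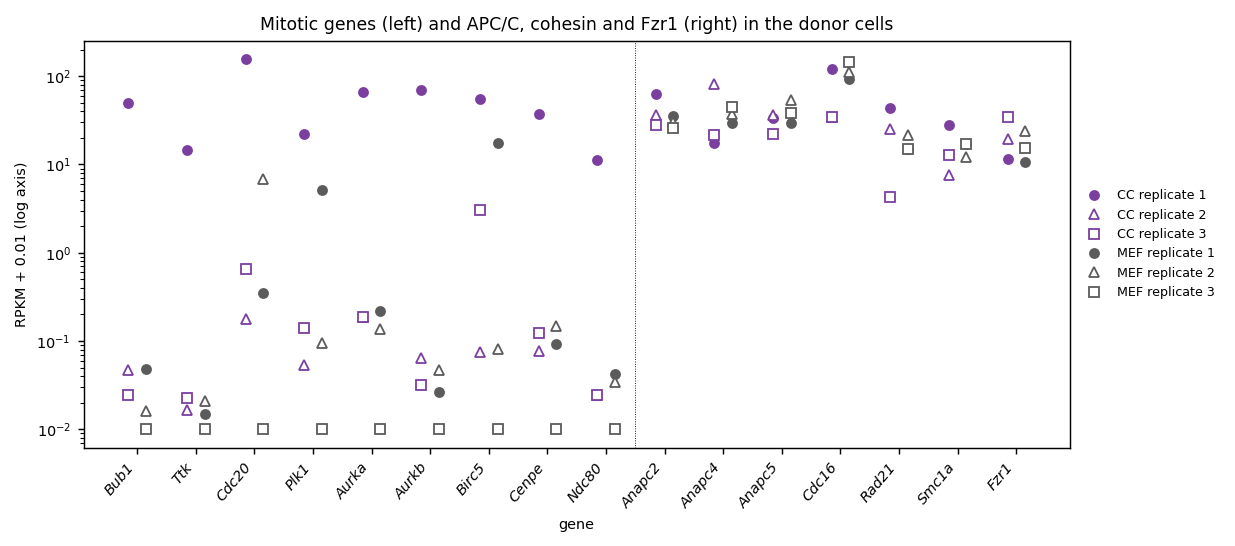
Levels of 16 members in the 3 CC and 3 MEF libraries on a log axis of RPKM + 0.01, with mitotic genes on the left and APC/C, cohesin and Fzr1 on the right of the dotted line. On the left the filled CC symbol (replicate 1) lies far above the 2 open CC symbols in most genes, and on the right all libraries lie between 4.27 and 143 RPKM.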

How the data were processed

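The authors sequenced cDNA amplified from single embryos and donor cells. Per their methods, paired-end reads were mapped with TopHat and Bowtie2, counted per gene with HTSeq and deposited as RPKM, whereas the submitters' processing notes name Bowtie 0.12.2 and build mm8. The deposited RPKM table holds 27238 genes and 60 libraries, all mapped to samples by the labels. Reads per library were estimated from the step that 1 read makes in the values of a gene. Coordinates and lengths are those of GRCm38. PCR copies were not removed by molecular identifiers, so limits from read numbers cover counting error only.

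Genes with a mean of at least 0.5 RPKM in the libraries compared were tested with limma 3.58.1 (R 4.3.3, trend) on log2(RPKM + 1), which understates changes of low genes. Differences between transitions were tested as interaction terms. Calls required a Benjamini-Hochberg adjusted p below 0.05 over all genes tested and a change of 1 or more on the log2 scale. The code was tested on simulated data. Figures and summaries used Python 3.11.15 and matplotlib 3.10.9. Alternatives were a pseudocount of 0.1, no filter, median-ratio scaling, 1 fit over all 20 groups, a replicate block and leaving out each replicate. The 8-cell in place of the 4-cell libraries, and leaving out mitochondrial reads, were added after seeing the data. Members and lists were chosen with earlier results of these data known. Members with values in every library were, per comparison, up to 3 with the largest rise and 3 with the largest fall, and the most abundant of each role. Same-numbered libraries did not deviate together (correlations over 0.1 for all 3 numbers in 0 of 34 comparisons), so numbers were not used as pairs.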

Additional observations from a re-analysis of the deposited data

Results flagged for a closer look

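The change from the 2-cell to the 4-cell stage differed between NT and in vivo embryos in 20 tests of an interaction term over 12 libraries each (limma, adjusted p under 0.05 over all genes). A negative value means that the change was lower in NT than in in vivo embryos, on the log2 scale of RPKM + 1. All 20 share the same in vivo libraries, of which the 4-cell libraries stood apart, and none was called with the 8-cell in place of the 4-cell libraries, where the sign turned in 5 of the 9 NTC terms and 4 of the 8 NTM terms that could be tested.

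In the checkpoint, Bub3 was at -4.76 in NTC and -4.92 in NTM embryos, and Mad2l1 at -4.08 and -3.03. These 2 genes were the members whose NTC term was called under all 9 alternatives tried for it, the 8-cell libraries not counted. Plk1 was at -5.04 in NTC and -6.31 in NTM embryos, and Aurka was called in NTC embryos, at -2.75. Aurkc was at -3.48 in NTC and -5.08 in NTM embryos. The second value depends on the pseudocount, since Aurkc was listed at 0 in all 3 NTM 4-cell libraries.

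At the centromere and kinetochore, Cenpa was at -3.30 in NTC and -4.07 in NTM embryos, and Cenpk at -4.10 and -3.62. Of the APC/C, Anapc7 was at -3.11 and -3.04 and Anapc13 at -2.02 and -2.08. Anapc13 was listed at 0 in all 6 NT 2-cell libraries, so its terms depend on the pseudocount too. Cdc23 was called in NTC embryos, at -1.97. Rad21 of cohesin had the positive terms, 2.34 in NTC and 2.74 in NTM embryos.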

How the results depend on the processing

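Over 32 counts of members called, 331 of 413 alternatives stayed within 1.5 times the count as reported and 82 did not. In this tally a count of 0 that stayed at 0 was taken as within, and equal counts need not hold the same members. Every alternative that kept the 4-cell libraries retained 21 of the 28 in vivo calls from the 2-cell to the 4-cell stage. From the 4-cell to the 8-cell stage in vivo 15 of 29 were retained, and for NTM embryos 1 of 9 from the 1-cell to the 2-cell stage. Against in vivo at the 4-cell stage 13 of 20 were retained for NTC and 6 of 17 for NTM embryos. With 1 fit over all 20 groups the count was 3 in NTC and 4 in NTM embryos from the 1-cell to the 2-cell stage, 17 in NTM from the 2-cell to the 4-cell stage, 1 in NTC from the 4-cell to the 8-cell stage, and from morula to blastula 6 in vivo and 0 in NTC and NTM embryos. The same fit gave 1 for NTM against in vivo at the 1-cell, 2-cell and 8-cell stages, 2 for NTC at the 8-cell stage, 5 for NTC and 7 for NTM at the blastula stage, 3 for NTM against NTC at the 1-cell stage and 1 over the later stages, 3 for MEF against CC, 15 for the NTM interaction term of the 2-cell to 4-cell change and 2 for that of morula to blastula. Without the filter the count was 4 in NTM from the 1-cell to the 2-cell stage, 11 for NTM against in vivo at the 4-cell stage, and 0 for MEF against CC, for NTC against in vivo at the blastula stage and for both NT types from morula to blastula. Median-ratio scaling gave 4 in NTM from the 1-cell to the 2-cell stage, 5 in NTC and 0 in NTM from morula to blastula, and for NTC against in vivo 2 at the 8-cell and 0 at the blastula stage. A pseudocount of 0.1 gave 3 for NTM against in vivo at the blastula stage. Leaving out mitochondrial reads gave 2 in NTC and 0 in NTM from morula to blastula, and for NTM against in vivo 2 at the 8-cell and 3 at the blastula stage. The 8-cell in place of the 4-cell libraries gave 15 in vivo, 16 in NTM and 0 for both interaction terms.

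With a replicate block, 29 of 32 counts stayed within 1.5 times, and 3 moved, to 1 for NTC against in vivo at the 8-cell stage and to 0 for NTC against in vivo at the blastula stage and for MEF against CC. Libraries of a number share no known source, so the block has no basis in the design.

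Leaving out 1 replicate at a time gave 4 to 8 calls in NTC and 1 to 10 in NTM from the 1-cell to the 2-cell stage, 23 to 31 in vivo, 10 to 16 in NTC and 4 to 7 in NTM from the 2-cell to the 4-cell stage, 21 to 30 in vivo from the 4-cell to the 8-cell stage, and 0 to 1 in NTC and 0 to 3 in NTM from morula to blastula. Against in vivo the ranges for NTC were 0 to 12 at the 1-cell, 0 to 1 at the 2-cell, 14 to 21 at the 4-cell and 0 to 3 at the blastula stage, and for NTM 0 to 4, 0 to 0, 6 to 21 and 0 to 4. The single 2-cell call came without in vivo 2-cell replicate 3, and the highest 1-cell values without in vivo 1-cell replicate 1. NTM against NTC at the 1-cell stage gave 7 to 14, MEF against CC 0 to 1, and the interaction terms 3 to 5 for NTC and 0 to 4 for NTM. With the 8-cell in place of the 4-cell libraries the direction turned in 9 of the 28 members called in vivo (26 could be tested), in 1 of 16 for NTC embryos and in none of 9 for NTM embryos. Under the other alternatives, called members changed direction from the 4-cell to the 8-cell stage in vivo, where median-ratio scaling put Aurkb at 0.02, Birc5 at 0.23 and Smc3 at 0.00. The causes were not tested.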
